A study of Mus musculus with 2 samples.

Results

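The adipocyte genes and the leptin receptor form a group of 10 genes that is described here across the cells of the mouse aorta: 9 that are called fat cell genes below (Adipoq, Cfd, Plin1, Plin4, Cidec, Lep, Retn, Ucp1 and Cyp2e1) and Lepr, the receptor of the fat hormone leptin. The name does not mean that these 9 are limited to fat cells. They are 10 of the 32285 features counted. They were listed by symbol because of their UMI counts (unique molecular identifiers, each standing for 1 captured RNA molecule), their joint detection within cells and their ratio between the libraries, so the group was selected on measured values; those values are a description and none of them was tested.

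Adipocytes store fat in a single large lipid droplet (white) or burn it in mitochondria (brown), and the aorta is wrapped in perivascular fat of both kinds. White adipocytes secrete adiponectin (Adipoq), the complement protease adipsin (Cfd), resistin (Retn, in rodents) and leptin (Lep). Perilipins (Plin1, Plin4) coat the droplet and CIDEC joins small droplets into a large one. UCP1 uncouples respiration in brown fat, and leptin signals through LEPR to the kinase JAK2, the factor STAT3 and its feedback inhibitor SOCS3.

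The series asked how endothelial CEPT1, an enzyme of the last step of phosphatidylcholine and phosphatidylethanolamine synthesis, relates to blood vessel growth, PPARα and VEGF-A. The Cept1 library came from Cept1fl/fl Cre+ mice, labelled as overexpressing Cept1 in endothelial cells, in which tamoxifen activates a Cre-ERT2 driven by VE-cadherin. The control library came from Cept1fl/fl Cre- mice, so the floxed allele is shared by both. The mice were male, on a C57BL6 background, and the labels' protocols give 5 daily tamoxifen injections of 1 mg, 5 days of recovery and an age of at least 8 weeks, while the age label gives 6 to 8 weeks. Whole aorta from arch to bifurcation (n = 3 per condition) was digested and profiled with droplet-based 3′ single-cell RNA sequencing. There was 1 library per group, whether mice were pooled is not known from the labels, no test between groups was possible, and every interval below (exact, 95%) covers counting error alone.

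The Cept1 library held 95735360 UMIs in 17728 barcodes and the control library 88220524 UMIs in 14349 barcodes. A barcode was kept as a cell from 500 genes upward and with no more than 10% mitochondrial UMIs, which left 11168 and 8729 cells with medians of 6438.5 and 6735 UMIs. Cells were gated into 14 classes by 6 marker genes each (at least 3 detected and a lead of at least 2 over any other class), endothelial cells into arterial, capillary, venous and lymphatic, and fibroblasts by Pi16, C7 or Fmod marker sets. No adipocyte class was in the gate. Cept1 itself had 116 CPM (UMIs of the gene scaled to a common total of UMIs of the class) in all endothelial cells of the Cept1 library and 77.7 CPM in those of the control library, a log2 ratio of 0.58 (0.43 to 0.73), and it was also higher over all kept cells (0.40, 0.34 to 0.45). The libraries shared 74 barcode sequences, and UMIs of 2 or more of the 9 fat cell genes were found at 0 of these in the Cept1 library, against 2 in the control library.

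All 10 genes are protein coding. On GRCm38 (GENCODE vM21), Adipoq lies at chr16:23146536-23158028, Cfd at chr10:79890853-79892655, Lepr at chr4:101717404-101815352, Ucp1 at chr8:83290352-83298452 and Retn at chr8:3655770-3660110, all on the plus strand. Plin1 (chr7:79720218-79732903) and Plin4 (chr17:56100591-56109803) lie on the minus strand. Plin4 overlaps Hdgfl2 on the opposite strand, and the labels and headers do not say whether the counting used strand, so reads of that overlap could belong to either gene. Cidec (chr6:113424634-113435760) is on the minus strand, and Lep (chr6:29060220-29073877) and Cyp2e1 (chr7:140763739-140774987) are on the plus strand.

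RefSeq promoter windows (GRCm38.p6) were matched for 10 of 10 genes, 12 windows in all. The 250 bases upstream of the start are printed for Adipoq and Cfd, the secreted genes that the counts below turn on, and for Ucp1, the brown fat gene that differed from them; none of these windows holds an annotated exon. Capitals mark the motif matches.
Adipoq, chr16:23146286-23146535, plus strand: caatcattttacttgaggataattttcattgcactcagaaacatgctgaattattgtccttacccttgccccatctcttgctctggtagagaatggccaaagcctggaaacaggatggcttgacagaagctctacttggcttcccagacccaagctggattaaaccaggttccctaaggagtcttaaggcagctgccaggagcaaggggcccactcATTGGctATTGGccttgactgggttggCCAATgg
Cfd, chr10:79890603-79890852, plus strand: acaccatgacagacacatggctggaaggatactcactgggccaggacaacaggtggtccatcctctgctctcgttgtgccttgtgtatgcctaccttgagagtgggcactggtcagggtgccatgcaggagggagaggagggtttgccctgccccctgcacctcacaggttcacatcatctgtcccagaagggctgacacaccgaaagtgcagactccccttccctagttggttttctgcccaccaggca
Ucp1, chr8:83290098-83290347, plus strand: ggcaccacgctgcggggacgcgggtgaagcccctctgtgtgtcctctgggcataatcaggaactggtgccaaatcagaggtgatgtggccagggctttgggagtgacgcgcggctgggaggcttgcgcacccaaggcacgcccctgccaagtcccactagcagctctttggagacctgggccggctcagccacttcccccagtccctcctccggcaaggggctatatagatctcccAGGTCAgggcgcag
The motifs searched on both strands were the TATA box (TATAAA), the CCAAT box, the nuclear receptor motif AGGTCA, its direct repeat with 1 base between (DR1, which contains it), the E box (CACGTG), the GC box (GGGCGG), the C/EBP-type motif (TTGCGNAA) and the CArG box. The Adipoq window held 3 CCAAT matches (1 on the plus strand and 2 on the minus strand), the Ucp1 window 1 AGGTCA on the plus strand, and the Cfd window none. Among 32851 windows of the same length, CCAAT occurred in 33.8%, AGGTCA in 14.0%, TATAAA in 12.4%, GGGCGG in 32.7%, CACGTG in 6.02%, the CArG box in 1.47%, TTGCGNAA in 0.670% and the DR1 repeat in 0.0335%. Elsewhere, CCAAT was in the windows of Plin4, Cyp2e1 and Lepr, TATAAA in that of Cyp2e1, GGGCGG in those of Lep and Lepr, and TTGCGNAA in that of Lep. No searched motif was in the windows of Plin1, Cidec and Retn.

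Among gated classes and subtypes with at least 50 kept cells, 6 of the 8 fat cell genes with at least 20 UMIs (Adipoq, Cfd, Plin1, Cidec, Ucp1 and Cyp2e1; Lep had fewer) had their highest pooled level in capillary endothelial cells of the Cept1 library. In the control library this held for 5 of them, and Adipoq was highest in fibroblasts with no subtype (11.9 CPM), where 1 barcode held 60 of the 96 UMIs. Capillary endothelial cells numbered 293 in the Cept1 library, against 196 in the control library. Plin4 was highest in smooth muscle and Retn in neutrophils in both libraries, and Lepr in venous or lymphatic endothelial cells. For Plin4 and Retn the highest level was therefore not in the cells that carried the other fat cell genes.

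**Figure D1:**
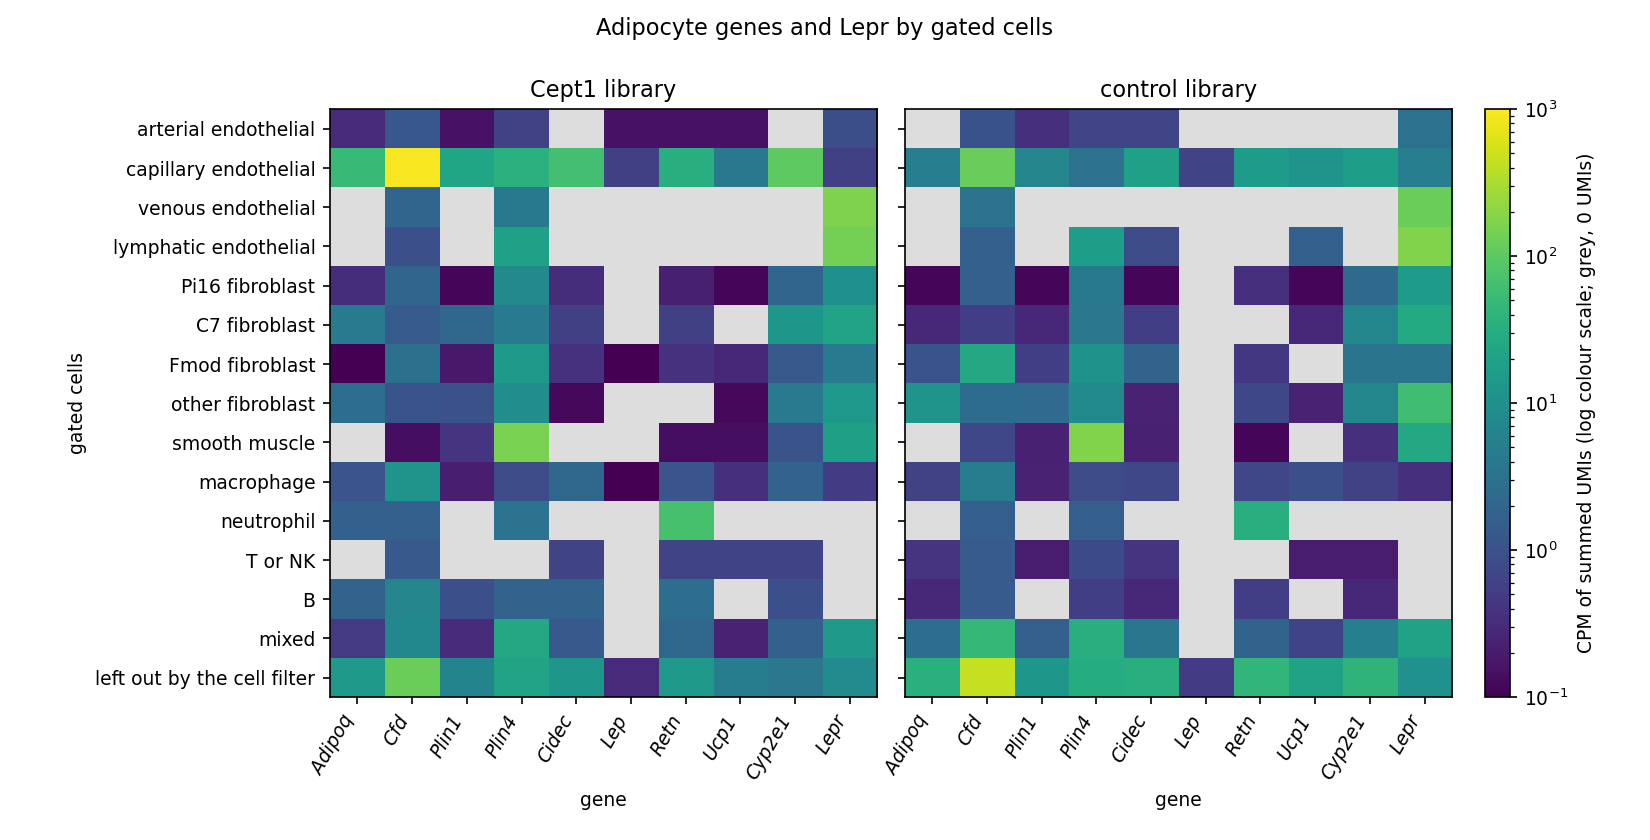
Level of each of the 10 genes (columns) in each gated class (rows), Cept1 library left and control library right, as CPM of summed UMIs on a log colour scale with grey for 0 UMIs. The capillary endothelial row is bright for Cfd, with 913 CPM in the Cept1 library, against 122 CPM in the control library, while Plin4 is brightest in smooth muscle and Lepr in venous and lymphatic endothelial cells.

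Cfd, the protease that starts the alternative complement pathway, had by far the most UMIs of the secreted genes. Capillary endothelial cells held 1573 Cfd UMIs in the Cept1 library, against 187 in the control library, or 913 and 122 CPM. A single barcode held 1149 of these UMIs in the Cept1 library, and the highest cell of the control library held 26. The share of these cells with a Cfd UMI was 21.2% (16.6 to 26.3) in the Cept1 library, against 21.4% (15.9 to 27.8) in the control library. The level thus differed between the libraries while the intervals of the shares overlapped. With each cell thinned to 2000 UMIs (mean of 50 random draws here and below) the shares were 13.5% and 9.73%. In B cells, which should lack the gene, 0.985% and 0.868% had a UMI, at median depths of 4449 and 5359.5 UMIs, against 4554 and 6195 UMIs in capillary cells.

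Cfd shares in the other large classes were lower. They were 0.689% and 1.26% in arterial endothelial cells, 0.734% and 1.15% in fibroblasts, and 2.18% and 3.93% in macrophages of the Cept1 and control libraries. Within the endothelium, capillary cells were 22.3% of cells in the Cept1 library, against 31.9% in the control library, yet they held 94.8% and 88.3% of the endothelial UMIs of the 9 fat cell genes.

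Adipoq, the gene of the hormone adiponectin, had 84 UMIs in capillary cells of the Cept1 library and 8 in those of the control library (48.8 and 5.22 CPM), and the barcode richest in Cfd held 54 of the 84. It was found in 4.78% and 3.06% of them, against 0.493% and 0.174% of B cells. Retn, the resistin gene, had 56 and 25 UMIs (32.5 and 16.3 CPM) in 7.51% and 9.18% of capillary cells. Lep was close to absent from the data: 9 UMIs over all barcodes of the Cept1 library and 7 over those of the control library, of which 5 and 1 were in kept cells.

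Retn had its highest level in neutrophils, with 40 UMIs (67.5 CPM) in the Cept1 library, against 21 UMIs (33.1 CPM) in the control library. It was detected in 20% of 125 and 14.5% of 83 neutrophils, and in 11.6% and 6.42% after thinning. The log2 ratio was 1.03 (0.23 to 1.86), in a class where 9.65% of 4723 measured genes were at least 2-fold higher in the Cept1 library. Retnlg, a close paralog of Retn, is one of the markers that gated these neutrophils, and reads shared between the 2 genes could not be checked here.

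Among the droplet genes, Cidec had 110 and 30 UMIs in capillary cells (63.8 and 19.6 CPM), in 7.17% and 10.7% of them. Plin1 had 39 and 10 UMIs (22.6 and 6.52 CPM), in 2.05% and 5.10% of cells. The Cfd-rich barcode held 60 of the 110 Cidec and 32 of the 39 Plin1 UMIs of the Cept1 library. For both genes the level was higher in the Cept1 library while the share of carrying cells was the lower of the 2. Plin4 had 61 and 5 UMIs there (35.4 and 3.26 CPM), 35 of the 61 in that barcode, and was detected in 6.14% and 2.04% of cells.

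Plin4, like Retn, was highest outside capillary cells. Smooth muscle cells held 1126 Plin4 UMIs in the Cept1 library (157 CPM, 52.1% of the Plin4 UMIs of all barcodes) and 1506 in the control library (176 CPM, 60.3%). It was detected in 70.3% and 78.4% of smooth muscle cells, whose median depths were 10404 and 15241 UMIs, and in 26.7% and 28.5% after thinning. In B cells 0.493% and 0.347% had a Plin4 UMI. The log2 ratio in smooth muscle was -0.17 (-0.28 to -0.06). Lymphatic endothelial cells had 19.1 and 17.4 CPM and a UMI in 15.7% and 15.5% of cells (3.46% in both after thinning).

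Cyp2e1, a cytochrome P450 that oxidises ethanol and other small molecules, had 175 and 26 UMIs in capillary cells (102 and 16.96 CPM), in 7.17% and 7.65% of them, and 137 of the 175 were in the Cfd-rich barcode. It was also found in C7 fibroblasts, with 46 UMIs (12.9 CPM, 3.00% of cells) in the Cept1 library, against 25 UMIs (6.85 CPM, 3.86%) in the control library. The log2 ratio there was 0.92 (0.18 to 1.68), and the share of C7 fibroblasts with a UMI was slightly lower in the Cept1 library. The other fibroblasts carried Cyp2e1 too, with lower levels in the Cept1 library. Fibroblasts with no subtype had 4.56 CPM there, against 6.83 CPM in the control library. Pi16 fibroblasts had 2.01 and 2.39 CPM, Fmod fibroblasts 1.32 and 3.50 CPM, and all fibroblasts 3.68 and 4.52 CPM.

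Ucp1, the brown fat uncoupler, ran the other way in capillary cells, with 7 UMIs in the Cept1 library, against 18 in the control library (4.06 and 11.7 CPM). It was detected in 2.05% and 6.12% of cells. The highest capillary barcode held 2 Ucp1 UMIs in the Cept1 library, against 3 in the control library, so these UMIs were spread over cells. All barcodes together held 89 and 282 Ucp1 UMIs, of which 23 and 41 were in kept cells.

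For several of these genes, many UMIs sat in barcodes that the cell filter left out. The kept cells held 45.5% of Adipoq UMIs in the Cept1 library, against 28.6% in the control library, and 54.3% and 16.6% of Cfd UMIs. Over all genes the kept cells held 86.3% and 86.6% of UMIs. Plin4 (87.1% and 85.7%) and Lepr (90.7% and 92.3%) were close to or above that share. Cyp2e1 had 87.4% in the Cept1 library, against 32.3% in the control library. Left-out barcodes had median depths of 969 and 1157.5 UMIs and median mitochondrial shares of 17.6% and 14.6%. Over all barcodes the 9 genes summed were lower in the Cept1 library (log2 -0.77), the opposite of capillary cells.

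The fat cell genes were found together in the same capillary cells. UMIs of 2 or more of the 9 genes were present in 34 of 293 capillary cells of the Cept1 library (11.6%, 8.17 to 15.8) and in 26 of 196 of the control library (13.3%, 8.85 to 18.8). Thinned to 2000 UMIs, the shares were 6.19% of 279 cells and 4.67% of 183 cells. Cells with 2 or more of the genes had median depths of 5939.5 and 8543 UMIs, and cells with none had 4124 and 5547.5 UMIs. Their median mitochondrial shares were 4.56% and 5.09%, against 5.54% and 5.29% in cells with none. The most genes seen in 1 capillary cell were 8 in the Cept1 library, against 6 in the control library. No capillary cell with 2 or more of them had a Lepr UMI. Only 1 and 5 capillary cells had any Lepr UMI, so nothing is read from this.

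Detection of 2 or more of the genes was rarer in the other classes. It was seen in 0 of 726 arterial cells of the Cept1 library and 1 of 238 of the control library, in 1 of 203 and 0 of 576 B cells, in 0.151% and 0.322% of fibroblasts and in 0.933% and 0.785% of macrophages. Among cells with markers of more than 1 class ("mixed", 10.8% and 15.0% of kept cells) it was seen in 1.75% and 2.52%. A doublet score above 0.25 was found in 1 of the 34 capillary cells with 2 or more genes in the Cept1 library and in 1 of the 26 in the control library. The Cept1 cell was the barcode that held 1149 of the 1573 Cfd UMIs (score 0.53), and without cells above that score the capillary Cfd counts were 424 and 185 UMIs (log2 1.01).

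Most of the genes were tied to Cfd. Of capillary cells with Adipoq, 10 of 14 in the Cept1 library and 5 of 6 in the control library also had Cfd, against 18.6% and 19.5% of cells without Adipoq. The same held for 16 of 21 and 14 of 21 cells with Cidec, for 18 of 22 and 14 of 18 with Retn, for 16 of 21 and 13 of 15 with Cyp2e1, and for 13 of 18 and 3 of 4 with Plin4. Ucp1 differed: 1 of 6 Ucp1 cells and 3 of 12 had Cfd, close to the 21.3% and 21.2% of cells without Ucp1.

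A few barcodes carried much of the signal, and they differed between the libraries. Barcodes with at least 50 UMIs of the fat cell genes (Plin4 not counted), a limit set after the values were seen, numbered 9 in the Cept1 library, against 40 in the control library. The nearest barcodes on each side of the limit had 55 and 47 UMIs in the Cept1 library, and 70 and 42 in the control library. Of these barcodes, 7 and 5 had at least 10000 UMIs in all, and the other 2 and 35 were shallower. The deep ones held 70.8% of all Cfd UMIs in the Cept1 library, against 36.7% in the control library. The shallow ones held 3.41% and 49.5%.

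**Figure D2:**
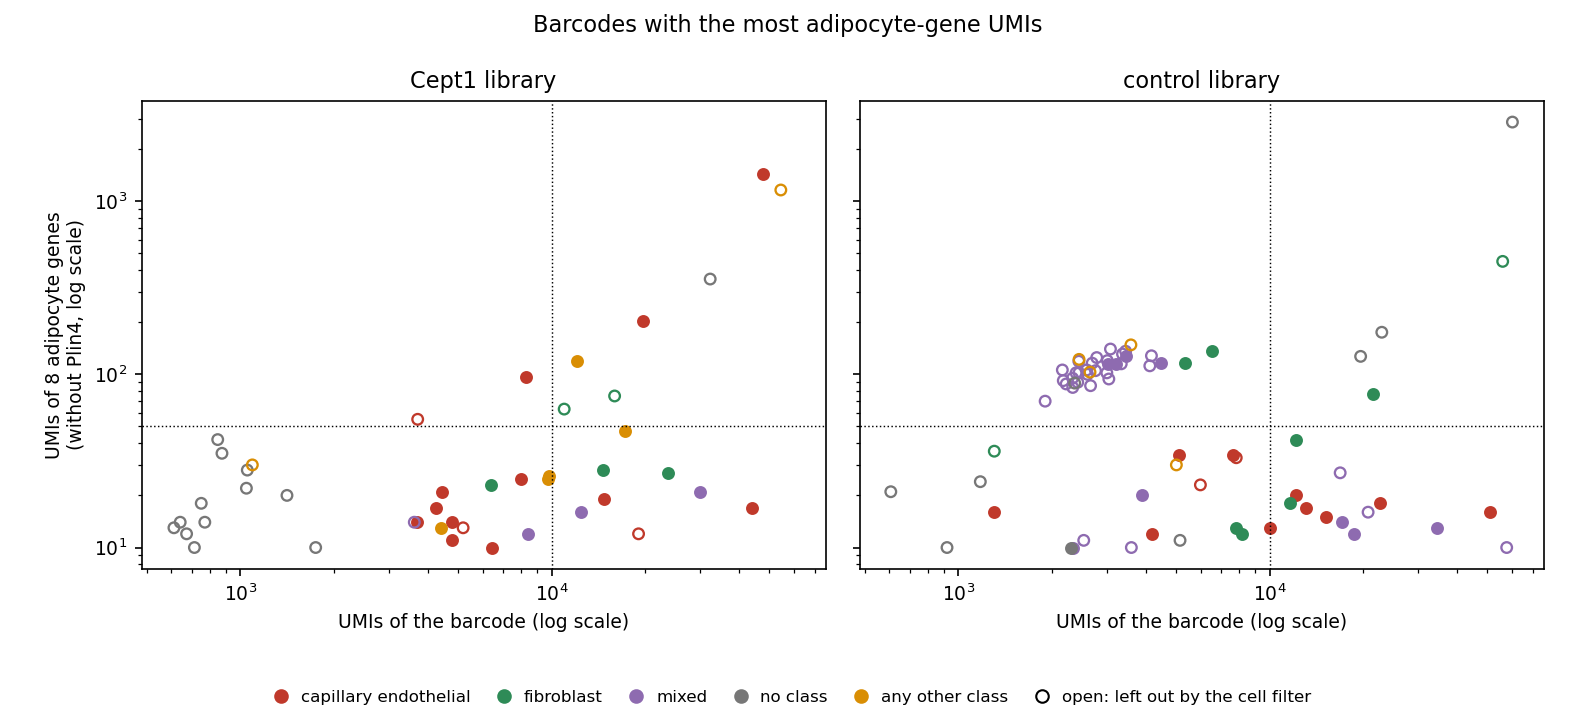
Each point is 1 barcode with at least 10 UMIs of 8 fat cell genes (vertical axis, Plin4 not counted) against its total UMIs (horizontal axis), both on log scales, coloured by gated class and open where the cell filter left the barcode out. The dotted lines stand at 50 and 10000 UMIs; the control library has a tight cloud of 35 shallow barcodes above the first line, where the Cept1 library has 2.

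Some deep barcodes were rich in Cfd and Adipoq and held 0 Ucp1 UMIs. In the Cept1 library, 1 barcode of 47703 UMIs was gated as a capillary cell and kept: it held 1149 Cfd, 137 Cyp2e1, 60 Cidec, 54 Adipoq, 35 Plin4, 32 Plin1, 2 Retn and 0 Ucp1 UMIs, and also 614 of Car3 (carbonic anhydrase 3, abundant in fat) and 6 of 6 capillary markers. Another of 54481 UMIs was left out at 13.9% mitochondrial UMIs, carried the venous gate, and held 918 Cfd, 82 Retn, 70 Adipoq, 7 Lepr and 1 Cyp2e1 UMIs. In the control library, the richest barcode (60256 UMIs, left out at 15.9%) had no class and held 1949 Cfd, 403 Retn, 219 Cyp2e1, 126 Adipoq, 106 Cidec, 58 Plin1 and 0 Ucp1 UMIs. The brown fat genes Cox8b (respiratory chain) and Cidea (lipid droplet) were not absent from these 3 barcodes: they had 12 and 5 UMIs in the first, 17 and 2 in the second, and 48 and 39 in the control barcode. Retn ranged widely, with 2, 82 and 403 UMIs in these 3 barcodes, and the last held 403 of the 596 Retn UMIs of its library. A kept control barcode of 21474 UMIs and 1.06% mitochondrial UMIs had 60 Adipoq and 14 Plin1 UMIs but 0 Cfd.

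Other deep barcodes held Ucp1. In the control library, 1 of 56070 UMIs (left out at 24.4%) held 106 of the 282 Ucp1 UMIs together with 147 Cox8b, 28 Cidea, 192 Pck1 and 191 Cfd UMIs, and 1 of 22931 UMIs (left out at 26.8%) held 45 Ucp1, 81 Cox8b and 81 Cidea UMIs. In the Cept1 library, 1 of 15933 UMIs (left out at 24.8%) held 16 Ucp1, 45 Cox8b, 35 Cidea and 23 Cfd UMIs. All 3 were above the mitochondrial limit of the cell filter.

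Adipoq also occurred with little or no Cfd. Barcodes with at least 5 Adipoq and at most 4 Cfd UMIs, a rule set after the values were seen, numbered 2 in the Cept1 library (20 Adipoq with 0 Cfd, and 13 with 4). In the control library a barcode of 12156 UMIs had 35 Adipoq and 0 Cfd UMIs and a barcode of 2308 UMIs had 5 and 0, besides the 21474-UMI barcode above. All 5 held 0 UMIs of Pdgfra, a fibroblast receptor, but 8 to 94 UMIs of Dcn (decorin, a fibroblast matrix gene). In 4 of them 5 of 6 fibroblast markers were detected and they were gated as fibroblasts, while the 2308-UMI barcode had 3 of 6 and no class.

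The 35 shallow control barcodes had 1901 to 6511 UMIs (median 2759), 58 to 116 Cfd UMIs (median 88), 1 to 11 Adipoq UMIs (median 5), 3 to 16 Cyp2e1 UMIs (median 6), and 0 Ucp1 and 0 Lepr UMIs in every barcode. Cfd was a median of 3.06% of their UMIs. Haemoglobin was a median of 4.002% of their UMIs, against 0.0081% over all kept control cells, and 25 of the 35 had at least 3%. Over the 35 the median counts of detected markers were 4 of 6 erythroid, 3 of 6 fibroblast, 3 of 6 smooth muscle and 0 of 6 endothelial. Mitochondrial UMIs were 6.73 to 46.4%, 6 of the 35 passed the cell filter, and 29 were gated as mixed. The barcode at 46.4% stood apart, with no class and 0 haemoglobin UMIs. The part of haemoglobin, mitochondrial and mixed class markers in their Cfd level was not tested.

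**Figure D3:**
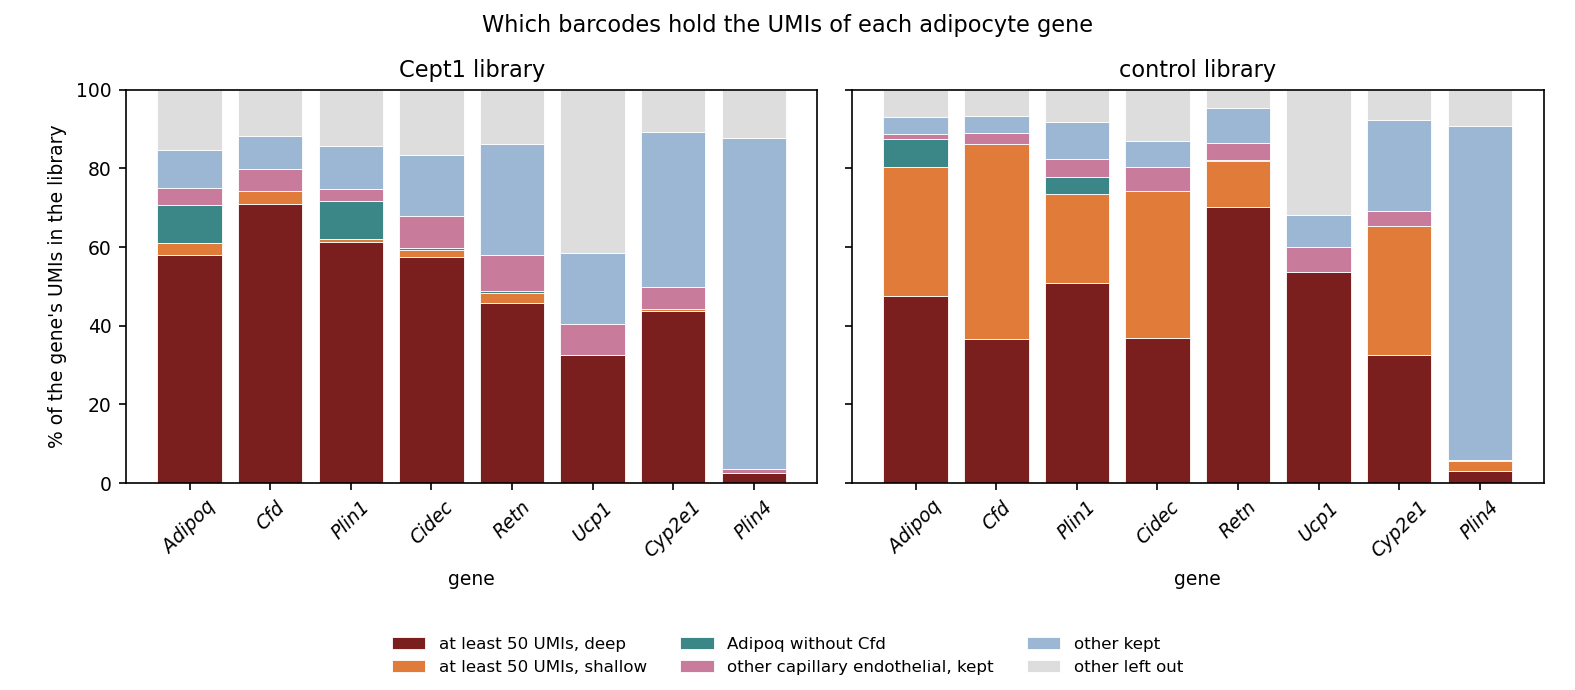
Share of each gene's UMIs in a library (vertical axis, %) held by deep and shallow barcodes with at least 50 UMIs, by barcodes with Adipoq but little Cfd, and by the remaining capillary, other kept and left-out barcodes, with the Cept1 library left. Shallow barcodes hold 3.41% of Cfd in the Cept1 library and 49.5% in that of the controls, and most of Plin4 lies in other kept cells of both.

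The ratio between the libraries in capillary endothelial cells was above 2-fold for most of the group. Of the 10 genes, 8 had at least 20 UMIs there; 6 were at least 2-fold higher in the Cept1 library (background over 10072 genes, 3.36%) and 1 at least 2-fold lower (background 2.40%). The median log2 ratio of the 8 was 2.19, against 0.02 over all measured genes. The group was chosen with these ratios known, so nothing is read from the counts. The log2 ratios were 3.44 (2.14 to 5.11) for Plin4, 3.22 (2.18 to 4.48) for Adipoq, 2.90 (2.68 to 3.13) for Cfd, 2.58 (1.98 to 3.24) for Cyp2e1, 1.79 (0.77 to 2.96) for Plin1, 1.71 (1.11 to 2.34) for Cidec and 0.99 (0.29 to 1.74) for Retn. Ucp1 had -1.53 (-3.03 to -0.20). The 9 genes summed had 2106 UMIs in the Cept1 library, against 310 in the control library, a log2 ratio of 2.60 (2.42 to 2.77).

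Most of these ratios rested on 3 barcodes. The 47703-UMI barcode held 1149 of the 1573 capillary Cfd UMIs of the Cept1 library, and the highest control capillary cell held 26 of 187. Without the richest capillary barcode of each library the summed log2 ratio was 1.07 (0.87 to 1.28), and without cells of high doublet score 0.88. Without the barcodes with at least 50 UMIs, which removed 3 capillary cells of the Cept1 library and 0 of the control library, it was 0.004 (-0.22 to 0.23), with 334 and 310 UMIs. Cfd then had 200 and 187 UMIs (log2 -0.007, -0.30 to 0.29), Cidec 29 and 30, Cyp2e1 22 and 26, Retn 32 and 25, Adipoq 15 and 8, and Plin1 5 and 10.

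Plin4 and Ucp1 kept their side of the 2-fold limit without those 3 barcodes. Plin4 had 23 and 5 UMIs (log2 2.10, 0.67 to 3.85) and Ucp1 7 and 18 (log2 -1.47, -2.97 to -0.14). Of the 7 genes still measured, 1 was at least 2-fold higher and 1 at least 2-fold lower, with backgrounds of 2.38% and 2.59% over 9959 genes, and their median was -0.007. Both genes had few UMIs in at least 1 library, and nothing beyond counting error enters the intervals.

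**Figure D4:**
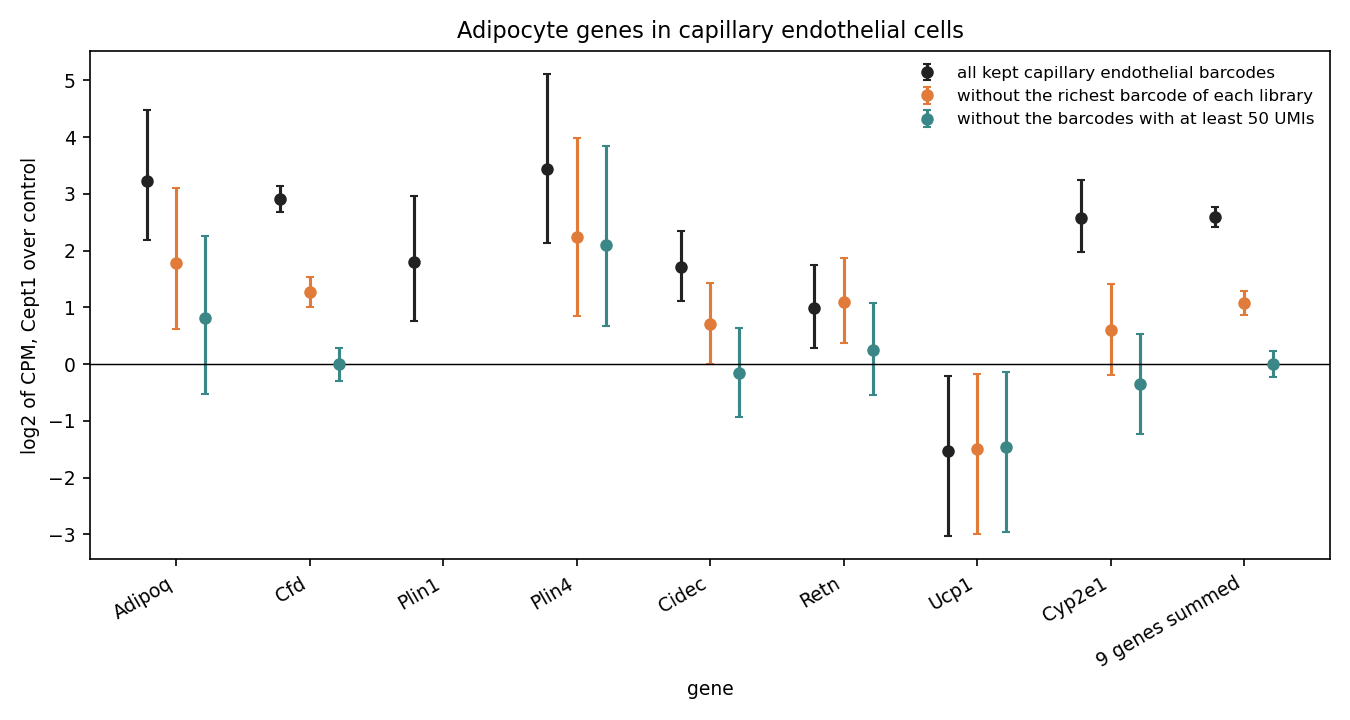
Log2 ratio of CPM (Cept1 over control, vertical axis) in capillary endothelial cells for 8 genes and for the 9 fat cell genes summed, with exact 95% intervals for counting error. Black points use all kept capillary cells, orange points leave out the richest barcode of each library and teal points leave out the barcodes with at least 50 UMIs; the summed value is 2.60, 1.07 and 0.004 in turn, and a point is missing where fewer than 20 UMIs remained.

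In fibroblasts, the largest class (5311 and 3726 cells), most of the fat cell genes measured had ratios below 0, unlike in capillary cells. Of 8 genes measured (Lepr included), 4 were at least 2-fold lower in the Cept1 library (background 2.38% of 15989 genes) and 0 at least 2-fold higher (background 1.60%). The 4 were Cfd, Adipoq, Cidec (10 and 22 UMIs) and Lepr, which is described below and was lower in capillary cells too. Cfd had 64 and 277 UMIs (log2 -2.21, -2.63 to -1.81) and Adipoq 42 and 108 (log2 -1.46, -2.01 to -0.93). Without the barcodes with at least 50 UMIs these became -0.21 and 0.05. Plin4 was higher, with 312 and 215 UMIs (log2 0.44, 0.18 to 0.70).

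Over all kept cells outside the capillary gate the 9 genes summed had a log2 ratio of -0.53. Of the 9 genes measured there (Lepr included, Lep under the minimum), 2 were at least 2-fold lower in the Cept1 library, Cfd (-1.27) and Adipoq (-1.22), with a background of 4.54% of 19563 genes, and 0 were at least 2-fold higher (background 1.87%). In macrophages 5 were measured and 3 were at least 2-fold higher: Cidec (1.62), Cyp2e1 (1.57) and Cfd (1.20), with a background of 3.24%. A macrophage barcode of 12075 UMIs held 82 of the 163 Cfd, 16 of the 25 Cyp2e1 and 11 of the 31 Cidec UMIs of that class in the Cept1 library. Without it Cfd was 0.20 (-0.36 to 0.77), Cidec 0.99 (-0.38 to 2.59), and Cyp2e1 had 9 and 5 UMIs, under the minimum.

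Other fat cell genes were higher in the capillary cells that carried 2 or more of the group than in capillary cells with none, in both libraries. Car3 was 101-fold higher in the Cept1 library and 26.2-fold higher in the control library, Cdo1 (cysteine dioxygenase) 39.8-fold and 17.4-fold, Pck1 (the gluconeogenic and glyceroneogenic enzyme PEPCK) 36.7-fold and 20.7-fold, and Scd1 (a fatty acid desaturase) 8.50-fold and 3.87-fold. Without the richest carrier of each library Car3 was 42.5-fold and 23.8-fold higher. Dbi and Scp2, lipid-binding proteins, were 4.38-fold and 2.42-fold, and 3.27-fold and 2.15-fold higher. The mitochondrial genes Chchd10 and Etfb were 3.04-fold and 4.96-fold, and 2.67-fold and 2.39-fold higher, and the interferon-induced Ifi27l2a was 10.6-fold and 4.99-fold higher.

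Of the 12 genes named by this comparison, 4 depended on 1 barcode of the Cept1 library. The chemokine gene Cxcl10 was 33.3-fold and 27.1-fold higher, but 0 of its 49 UMIs in Cept1 carriers remained without the richest carrier. Sox5 (4.11-fold and 9.23-fold) became 1.17-fold and Hacd2 (4.99-fold and 2.29-fold) 1.38-fold in the Cept1 library. Chchd10 became 1.71-fold there, with 36 of its 76 UMIs left. Of 2516 genes compared, 2.11% were at least 2-fold higher in carriers of the Cept1 library and 1.87% in those of the control library, with median folds close to 1. As counts, 53 and 47 genes were at least 2-fold higher in carriers, and 25 and 89 were at least 2-fold lower. On the white fat list, 11 of 21 measured genes were at least 2-fold higher in both libraries, against 1.63% of 6803 genes. The 6803 genes had at least 5 UMIs in the carriers of each library, a minimum that favours genes high in carriers. Carriers were themselves defined by fat cell genes, and the count was not repeated without the richest carrier, so nothing is read from it.

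Over 28 points (a class in a library, each with at least 50 cells), the genes whose log2(CPM + 1) was most like that of Adipoq, among 14003, were Plin1 (Pearson r = 0.92), Cyp2e1 (0.86), Car3 (0.84), Mrap (0.80), Adig (0.76) and Lrrc36 (0.75). The points share libraries and depth, and for rare genes they share the barcodes described above. Plin1 and Cyp2e1 belong to the group itself. Mrap encodes a partner of melanocortin receptors that is found in fat, and Adig encodes adipogenin.

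Gene lists of fat cell function were compared in capillary cells in the same way. Of 28 white fat genes 24 were measured; 19 were higher in the Cept1 library, 4 lower and 1 had 0 UMIs in a library, with a median of 0.62 and 9 past 2-fold (background 3.36%). Adrb3, the fat cell β3-adrenergic receptor, had 24 and 2 UMIs (log2 3.42, 1.41 to 6.54), Mrap 60 and 6 (3.15, 1.95 to 4.66) and Car3 1040 and 284 (1.70, 1.51 to 1.90). Without the 3 barcodes 20 were measured, 9 were higher and 11 lower, and the median was -0.09. Mrap then had 16 and 6 UMIs (1.31, -0.12 to 2.95), Adrb3 was under the minimum, and Car3 had 241 and 284 UMIs (log2 -0.34, -0.59 to -0.09). Single genes still differed: Pparg was higher, with 1880 and 1095 UMIs (0.68, 0.57 to 0.78). Lower were Pnpla2 (-0.50, -0.76 to -0.24), Thrsp (-0.51, -0.73 to -0.30) and Agpat2 (-1.69, -3.05 to -0.49).

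Genes that capillary endothelium and fat cells share differed less. Of 7 such genes 6 were higher (median 0.21), with Acsl1 at 1.08 (0.73 to 1.44), Angptl4, an inhibitor of lipoprotein lipase, at 0.85 (0.63 to 1.07) and the fatty acid receptor Cd36 at 0.43 (0.39 to 0.47). Without the 3 barcodes Angptl4 was 0.70 (0.48 to 0.93) and Cd36 0.44 (0.40 to 0.49), while Acsl1 was -0.46 (-0.92 to -0.01). Of 4 measured brown fat genes of 18 listed, 1 was higher and 3 lower (median -0.79): Cox8b had 31 and 51 UMIs (-0.89, -1.58 to -0.22), Prdm16, a brown fat regulator, 67 and 105 (-0.82, -1.28 to -0.36) and Cidea 14 and 7 (0.83, -0.57 to 2.38). Without the 3 barcodes Cox8b had 16 and 51 UMIs (log2 -1.78, -2.69 to -0.94).

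Receptors of adiponectin differed little. All 4 genes of the list were higher in capillary cells of the Cept1 library (median 0.29): Appl1, the adaptor of the receptors, by 0.52 (0.11 to 0.93), the adiponectin-binding cadherin Cdh13 by 0.36 (0.26 to 0.46), and Adipor1 by 0.23 (-0.005 to 0.46). Of the other perilipin and CIDE genes 3 were measured, with Plin2 at 0.42 (0.19 to 0.64) and Plin3 at -0.14 (-0.74 to 0.46). Of 10 adipose progenitor genes 6 were higher and 4 lower (median 0.23); Dlk1 had 7 and 25 UMIs (-2.01, -3.46 to -0.76), Icam1 55 and 152 (-1.64, -2.11 to -1.18) and Cebpa, a factor of fat cell differentiation, 33 and 12 (1.29, 0.30 to 2.38). Without the 3 barcodes Cebpa had 9 and 12 UMIs (-0.52, -1.95 to 0.85).

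Lepr was found in other cells than the rest of the group. Among subtypes with at least 50 cells its highest levels were in venous endothelial cells, with 166 CPM (131 to 206) in the Cept1 library, against 125 CPM (97.9 to 156) in the control library, and in lymphatic endothelial cells, with 147 CPM (132 to 165) and 175 CPM (152 to 200). The order of these 2 subtypes was reversed between the libraries and their intervals overlapped in each. C7 fibroblasts (21.9 and 28.2 CPM), smooth muscle (18.5 and 26.3 CPM) and Pi16 fibroblasts (10.0 and 16.0 CPM) followed, apart from fibroblasts with no subtype, which had 13.4 and 59.3 CPM. Endothelial cells with no subtype, 35 and 18 in number, had 45.2 and 32.2 CPM, and mixed cells 14.0 and 20.2 CPM. Lepr was low in Fmod fibroblasts (4.62 and 3.50 CPM), arterial cells (0.926 and 3.10 CPM) and capillary cells (0.58 and 5.22 CPM).

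A Lepr UMI was present in 66.0% of 191 and 72.8% of 103 lymphatic cells, and in 51.5% of 68 and 45.8% of 59 venous cells. Thinned to 2000 UMIs per cell, the shares were 27.4% and 33.1% in lymphatic cells and 28.2% and 24.6% in venous cells. In B cells, with 0 Lepr UMIs in 203 and 576 cells, shares of up to 1.48% and 0.521% are allowed. Lymphatic cells held 74.4% of endothelial Lepr UMIs in the Cept1 library, against 67.8% in the control library, venous cells 19.1% and 24.1%, and capillary cells 0.235% and 2.57%.

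**Figure D5:**
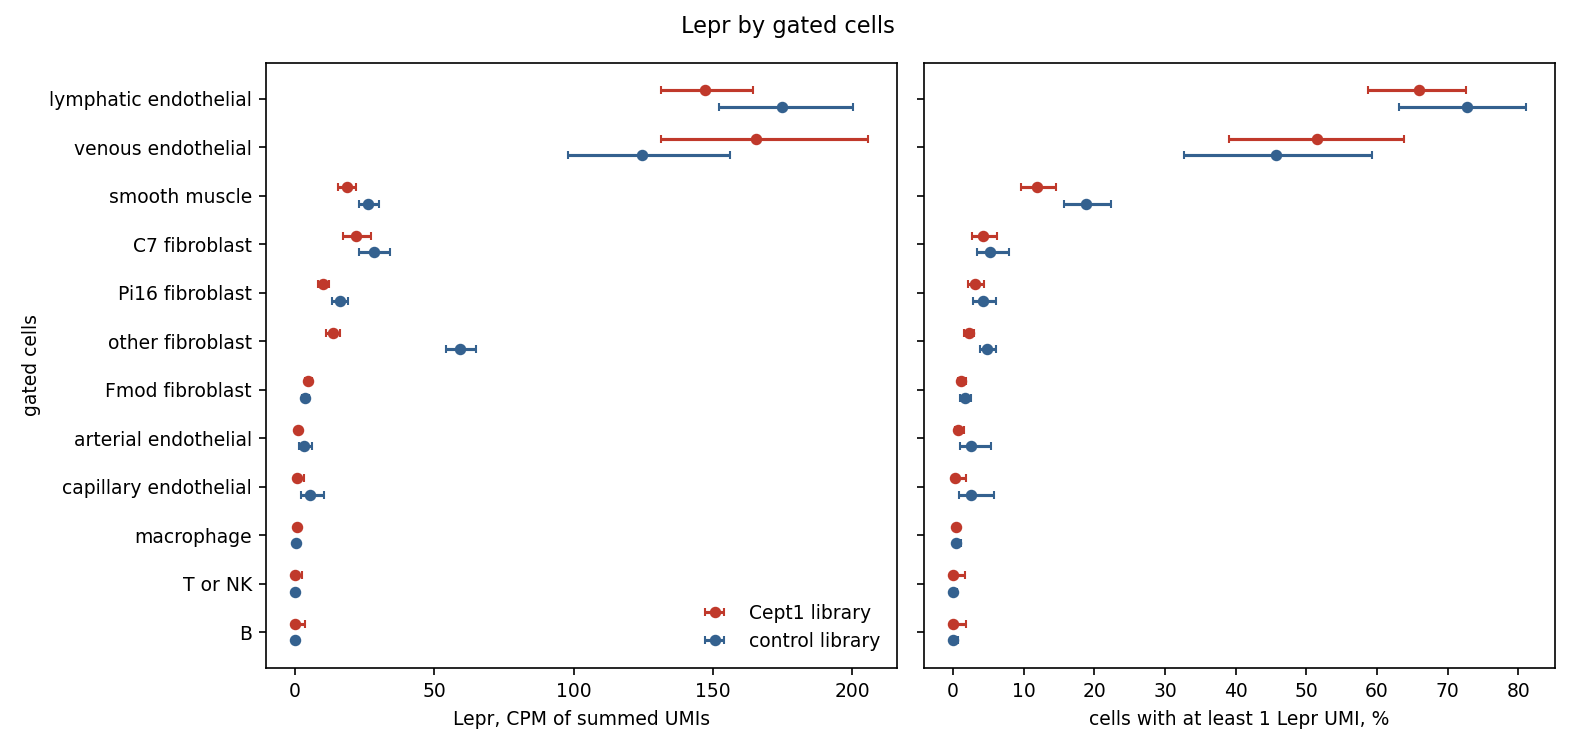
Lepr level (left, CPM of summed UMIs) and share of cells with at least 1 Lepr UMI (right, %) in each gated class, Cept1 library in red above control library in blue, with exact 95% intervals for counting error. Venous and lymphatic endothelial cells stand highest in both libraries, and fibroblasts with no subtype have 13.4 CPM in the Cept1 library, against 59.3 CPM in the control library.

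The Lepr ratio was small in lymphatic and venous endothelial cells, where the level was highest. It was -0.25 (-0.50 to 0.01) in lymphatic cells and 0.41 (-0.06 to 0.88) in venous cells, so both intervals held 0. In smooth muscle it was -0.51 (-0.83 to -0.19), in cells of unequal depth, with a UMI in 11.9% and 18.8% of cells (3.16% and 4.91% after thinning). In Pi16 fibroblasts it was -0.67 (-1.07 to -0.28). In capillary cells there were 1 and 8 UMIs, a log2 ratio of -3.17 that 1 UMI decides.

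Over all fibroblasts Lepr had 326 UMIs (10.4 CPM) in the Cept1 library, against 747 (25.6 CPM) in the control library, a log2 ratio of -1.29 (-1.49 to -1.10). Fibroblasts with at least 10 Lepr UMIs, a limit set after the values were seen, numbered 2 of 5311 and 18 of 3726, and they held 7.06% and 53.9% of those UMIs. Without them the counts were 303 and 344 UMIs and the log2 ratio was -0.30 (-0.52 to -0.07). In fibroblasts with no subtype the ratio was -2.14 (-2.46 to -1.84), and -0.93 (-1.30 to -0.56) without those cells.

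The 18 Lepr-rich control fibroblasts had a profile of their own, described with genes that were picked after their values were seen. Cilp, a cartilage matrix protein, had 2050 CPM in them and 87.8 CPM in control fibroblasts with no Lepr UMI, and was detected in 14 of the 18. Myoc (myocilin) had 807 and 60.3 CPM, the Wnt modulator Dkk2 755 and 45.1 CPM (from 8 of the 18 cells), Angptl1 650 and 59.0 CPM and C1qtnf3 366 and 33.2 CPM. Thbs4 (thrombospondin 4) had 427 and 3.98 CPM, from 5 of the 18 cells. Smaller differences were seen for the subtype markers Pi16 (4178 and 3140 CPM), Penk (232 and 118 CPM), Bmper (238 and 97.7 CPM), Dpp4 (200 and 67.2 CPM) and Fmod (131 and 428 CPM). Cxcl12 and Kitl, which mark Lepr-positive stroma of mouse bone marrow, were lower in the 18 cells, with 31.9 and 361 CPM and with 14.5 and 77.1 CPM. In the 2 Lepr-rich fibroblasts of the Cept1 library Cilp had 1877 CPM, against 96.8 CPM in Cept1 fibroblasts with no Lepr UMI, and Myoc 2856 CPM against 31.2 CPM. Cxcl12 and Kitl were not lower in those 2 cells, with 571 against 397 CPM and 81.6 against 79.5 CPM, from only 7 and 1 UMIs.

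Over the 28 points, the genes most like Lepr among 14003 were Ak4 (r = 0.94), Sema3a (0.87), BC037039 (0.86), Pcdhb13 (0.86), Rspo3 (0.86) and Itih3 (0.86). Ak4 is a mitochondrial adenylate kinase, Sema3a a secreted guidance cue and Rspo3 a secreted enhancer of Wnt signalling. Here too the points share libraries and depth.

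Genes of the leptin receptor pathway showed no common direction. In capillary cells 12 of 12 were measured, 5 were higher and 7 lower (median -0.04); the insulin receptor substrate Irs1 had 24 and 7 UMIs (1.61, 0.35 to 3.07), Irs2 16 and 8 (0.83, -0.48 to 2.26) and Socs3 142 and 253 (-1.002, -1.31 to -0.70). Without the 3 barcodes Irs1 had 13 and 7 UMIs (0.79, -0.64 to 2.35), and Socs3 was -1.04 (-1.36 to -0.73). In lymphatic cells, where Lepr was high, 10 were measured and 7 were higher (median 0.20). Socs3 there had 121 UMIs in the Cept1 library, against 15 in the control library (2.18, 1.40 to 3.06), and Stat3 521 and 218 (0.43, 0.20 to 0.66). Socs3 was lower in the Cept1 library in fibroblasts (-0.33) and smooth muscle (-0.61), so its direction differed between classes.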

How the data were processed

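Per the file headers, the authors deposited UMI counts from Cell Ranger 7.2.0, whole numbers that had not been normalized. Seurat and mm10 appear in the submitters' processing notes. The labels and headers name no annotation, strand setting or intron counting. Barcodes were gated by marker UMIs as described, UMIs were summed per class and divided by all UMIs of the class (CPM), and log2 ratios (Cept1 over control) carry Clopper-Pearson intervals at 95%, which are exact and treat a gene's UMIs as split between the libraries. Shares of cells have exact binomial intervals, and a count of 0 allows 3 counts. A gene counted as measured with at least 20 UMIs and as past the limit at 2-fold. Cells are not replicates, so no p-value was computed. Doublets were scored with Scrublet (scanpy 1.11.5, expected rate 8%) and kept in the main values; a score above 0.25, applied to both libraries, marked 489 cells (4.38%) of the Cept1 library and 173 (1.98%) of the control library, where the automatic limit marked 0 (489 in the Cept1 library).

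All 10 genes are named. The others named are the 6 genes most like Adipoq and Lepr (Pearson correlation over class by library points with at least 50 cells, genes with at least 100 UMIs), the 12 with the largest fold in capillary cells with 2 or more fat cell genes over cells with none, and the 3 of each list with the largest ratio. The 12 were drawn from genes with at least 20 UMIs in the carrying cells of each library. The genes and the 7 lists were chosen with earlier results of these data known. Mitochondrial, ribosomal protein and haemoglobin genes and unnamed models were left out of the first 2 sets. Alternatives changed the normalization (TMM factors of edgeR 4.0.16), the cell filter, the gate, the doublets, the thinning, the weight of cells and the genes summed; leaving out rich barcodes was added after the values were seen. Ratios and gates were tested on simulated data. Python 3.11.15, numpy 2.4.6, scipy 1.17.1, pandas 2.3.3, matplotlib 3.10.9 and R 4.3.3 were used.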

Additional observations from a re-analysis of the deposited data

Results flagged for a closer look

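In 5 genes the log2 ratio (Cept1 over control) had a positive sign in capillary endothelial cells and a negative sign in all other kept cells, with both intervals away from 0: Adipoq 3.22 against -1.22, Cfd 2.90 against -1.27, Plin1 1.79 against -0.87, Plin4 3.44 against -0.34 and Cyp2e1 2.58 against -0.34. Cidec had the same pair of signs (1.71 against -0.41), but its interval outside capillary cells held 0 (-0.91 to 0.08). With 1 library per group the difference was not tested. Without the barcodes with at least 50 UMIs the capillary values were 0.80 for Adipoq, -0.007 for Cfd, 2.10 for Plin4 and -0.34 for Cyp2e1, and Plin1 had 5 and 10 UMIs.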

How the results depend on the processing

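No paired analysis was possible because each group had 1 library. The summed log2 ratio in capillary cells (2.60) was 0.68 with every cell weighted equally, 1.02 thinned, 2.35 with a filter of 200 genes and 20% mitochondrial UMIs, 3.16 with 1000 genes and 5%, 0.25 with a stricter gate, 0.88 without cells of high doublet score, 1.95 without Cfd, 1.07 without the richest barcode of each library and 0.0037 without barcodes with at least 50 UMIs. Outside the capillary gate (-0.53) the same sum was -0.92 with equal weights, -0.93 thinned, -1.30 and -0.24 with the looser and stricter filters, -0.36 without Cfd, -0.22 without barcodes with at least 50 UMIs, -0.87 without Plin4 and 0.18, the opposite sign, with the stricter gate. Lepr in fibroblasts (-1.29) was -0.81 with the stricter gate, and in capillary cells it ranged from -3.49 to -2.11. The share of capillary cells with 2 or more genes (11.6% in the Cept1 library) was 5.02% in 1 random draw of thinning, 18.0% with the stricter filter and 7.85% without Cfd; in the control library (13.3%) it was 3.83% in 1 draw. Genes past 2-fold numbered 580 in capillary cells, 71 with at least 100 UMIs and 5770 with no minimum; in fibroblasts 636, 136 and 5840. Signs also changed in capillary cells for Plin1 with equal weights (-0.014) and Cidec thinned (-0.23), and without barcodes with at least 50 UMIs for Cfd (-0.0069), Cidec (-0.15) and Cyp2e1 (-0.34), and in fibroblasts for Adipoq (0.045) and the sum (0.21). In fibroblasts, where the main interval held 0, Plin1 (-0.60) was 0.69 without those barcodes and Retn (-0.80) was 0.40 with the looser filter. The cause was not tested. Of the other single gene values, 120 stayed within the interval of the main value and 43 moved beyond it. Scaling by TMM or median ratios moved the ratios by at most 0.06. Depth limits Lep, Ucp1 and capillary Lepr, which rest on few UMIs.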
